A study of Mus musculus with 12 samples.

Results

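The 35 genes of fatty acid oxidation and of the PPAR response described here cover uptake of fatty acids, their activation and transport into mitochondria, the β-oxidation spiral, electron transfer, lipid droplets, thioesterases, PPAR-responsive genes and the PPAR regulators themselves. They were chosen by name for their known roles, with earlier results of these data known. A GENCODE annotation of GRCm38 was used to match them to the deposited count table. All 35 were among the 55487 genes listed, and 34 passed the filter on low counts, Ppara being the exception. RNA was sequenced from C2C12 myotubes, which come from a single clonal line of mouse myoblasts and stand in for muscle fibers without blood supply, innervation or other cell types. Both groups were first kept in 2% horse serum for 5 days to differentiate. For the next 24 h, 6 wells (libraries 1 to 6) had DMEM with 4% horse serum and 6 wells (libraries 7 to 12) had DMEM with 4% STEM, all with penicillin and streptomycin. STEM is a cell-free product secreted by human embryonic stem cells that had been partly differentiated. It was given without horse serum, so the addition of STEM and the withdrawal of horse serum cannot be told apart, and the lipids of neither medium were measured here.

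Long-chain fatty acids enter muscle cells with the help of lipoprotein lipase, CD36 and fatty acid binding proteins, are joined to coenzyme A, and cross the mitochondrial membranes as carnitine esters. In the matrix the β-oxidation spiral shortens them in repeated rounds of dehydrogenation, hydration, dehydrogenation and thiolysis, and the electrons pass through the electron transfer flavoprotein to the respiratory chain. The PPARs are nuclear receptors that bind fatty acids, pair with RXR on DNA and raise the transcription of many of these genes. In muscle, PPARδ is known for this role together with the coactivator PGC-1α, and Angptl4, Pdk4, Plin2, Cpt1a and the uncoupling protein genes are textbook responders.

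Library totals ran from 13285472 to 24536264 counts. The labels do not say that the wells were separate cultures, so p-values measure the spread between these libraries, which may be technical. Horse serum library 6 stood apart, at -53.3 on principal component 2 against 0.216 to 11.8 for the other 11 libraries. On principal component 1 library 6 was at 11.2, against -35.5 to -24.6 for horse serum libraries 1 to 5 and 15.5 to 28.6 with STEM. The results for members that rest on library 6 are given with and without it. The label of myotubes was checked on 22 muscle markers, all of them expressed, of which Ttn, Acta1 and Mylpf were the highest in CPM, not corrected for length. Their summed level was 32590 to 34940 CPM (the count of a gene scaled to the normalized total of its library) in horse serum libraries 1 to 5, 17040 CPM in library 6, where all 22 lay below the other horse serum libraries, and 26660 to 33380 CPM with STEM. Genes encoded by the mitochondrial genome took 3.72% to 4.21% of counts in horse serum libraries 1 to 5, 2.43% in library 6 and 2.54% to 3.29% with STEM. The sum of 9 genes of undifferentiated myoblasts was 534 to 627 CPM in libraries 1 to 5, 728 CPM in library 6 and 695 to 779 CPM with STEM. Most of this difference lay in Cdh15, and the other 8 summed to 238 to 280 CPM, 269 CPM and 248 to 281 CPM. Some of these 8 were higher and others lower with STEM, so their sum does not show the changes of single genes. The sum of 12 cell cycle genes was 882 to 1296, 1434 and 660 to 824 CPM. Of 10 adipocyte genes, 7 did not exceed 10 counts in any library, and Lep, Cfd, Plin1 and Cidec had none, so that the list's sum (182.5 to 193.6 CPM, 154 CPM and 151.7 to 163.5 CPM) was mostly Adipor2, with Cebpa and Pparg. Of 6 brown adipocyte genes, 4 did not exceed 10 counts, Ucp1 and Prdm16 among them, and the sum (284 to 362, 246 and 304 to 351 CPM) was nearly all Dio2. The 6 macrophage genes summed to 2.31 to 5.77 CPM and the 5 endothelial genes to 0.423 to 1.02 CPM over the 12 libraries. The part of these markers and of the mitochondrial share in the results that follow was not tested, and in bulk RNA fewer cells of a type and less RNA per cell cannot be told apart.

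The members moved in both directions. Of the 34 tested, 14 passed an adjusted p of 0.05 or less between the media, by the quasi-likelihood test of edgeR with p-values adjusted after Benjamini and Hochberg over 14175 genes. This is the test behind every adjusted p given here, and SE stands for the standard error of a log2 fold change of STEM over horse serum. The 14 are 41.2% of the members against 36.4% of all genes. The 8 that rose with STEM were Ucp2, Angptl4, Acot2, Slc25a20, Crat, Cpt1a, Plin2 and Eci1, against 18.9% of all genes called higher. The 6 that fell were Lpl, Fabp5, Pdk4, Acaa2, Acadm and Decr1, against 17.4% called lower. Their share of calls was thus near the background, and the members' median log2 fold change of -0.014 stood beside 0.012 for all genes, with a median absolute value of 0.19 in both. At least 2-fold changes were found for 4 members, Lpl, Fabp5, Angptl4 and Ucp2, and for 2.69% of all genes. The libraries of the groups did not overlap for 10 of the 34 (7 higher and 3 lower, all of them called), or 29.4% against 17.2% of all genes. Without horse serum library 6, 21 of 34 members were called, or 61.8% against 50.8% of all genes. The 14 were kept, all 7 gained were lower with STEM, and the split became 8 higher (26.3% of all genes) and 13 lower (24.5% of all genes).

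**Figure D1:**
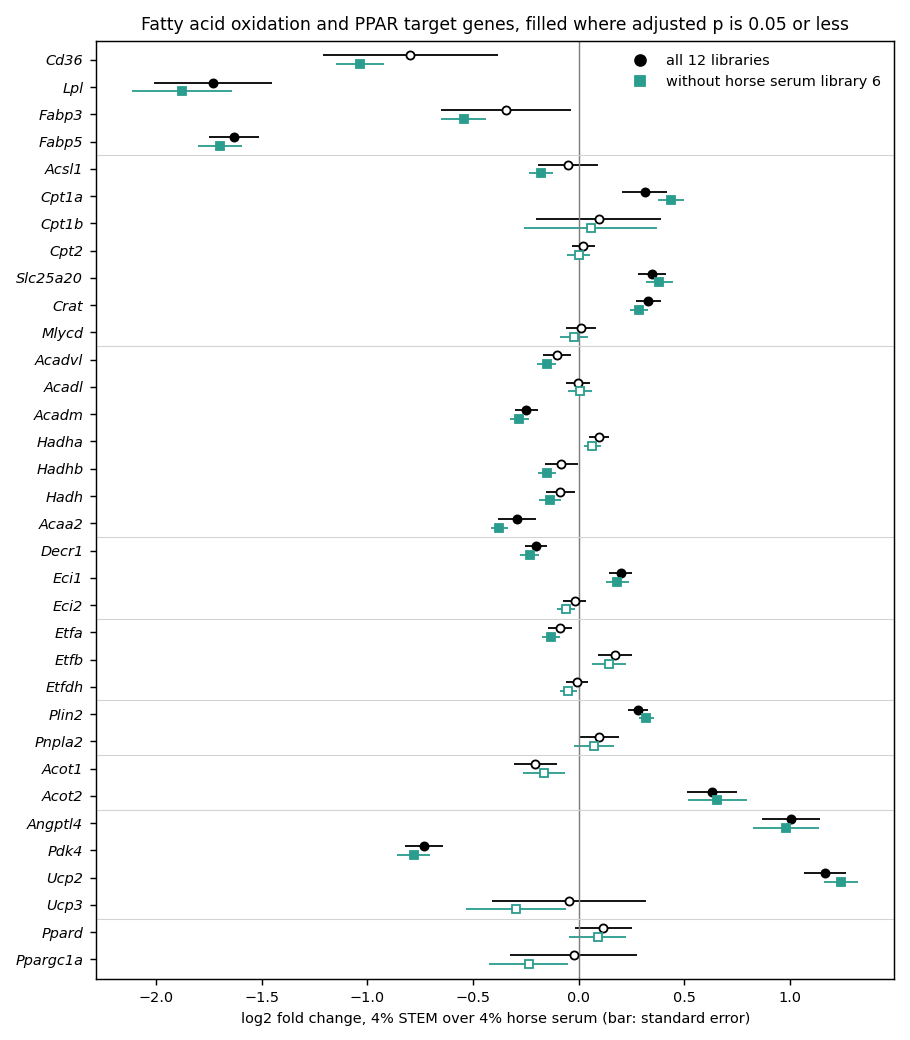
Log2 fold change of each of the 34 tested members, 4% STEM over 4% horse serum, with its standard error, from all 12 libraries (circles) and without horse serum library 6 (squares), grouped by role and filled where the adjusted p is 0.05 or less. Lpl and Fabp5 lie farthest to the left, Ucp2 and Angptl4 farthest to the right, and the genes of the β-oxidation spiral lie within 0.30 of 0 in the fit of all 12 libraries.

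Levels between genes are compared as CPM per kb of exon, with SD over 6 libraries. In horse serum, the highest was Acaa2, the gene of the last enzyme of the spiral, at 116 ± 17.5 CPM per kb, followed by the muscle fatty acid binding protein gene Fabp3 at 104 ± 38.1 CPM per kb, and these neighbours in the order did not differ beyond their spread. The very long-chain dehydrogenase gene Acadvl at 67.3 ± 5.84 and the flavoprotein subunit gene Etfa at 45.4 ± 3.99 CPM per kb came next. At the low end, leaving out Cpt1b, Lpl (0.438 ± 0.179 CPM per kb) and Ucp3 (0.414 ± 0.182 CPM per kb) did not differ beyond their spread, and Ppara (0.145 ± 0.067 CPM per kb) came last. With STEM the first place was again taken by Acaa2, at 94.7 ± 4.82 CPM per kb, and Fabp3 stood at 81.3 ± 14.4. Lpl moved down to 0.132 ± 0.0366 CPM per kb, next to Ppara at 0.105 ± 0.0487 CPM per kb.

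**Figure D2:**
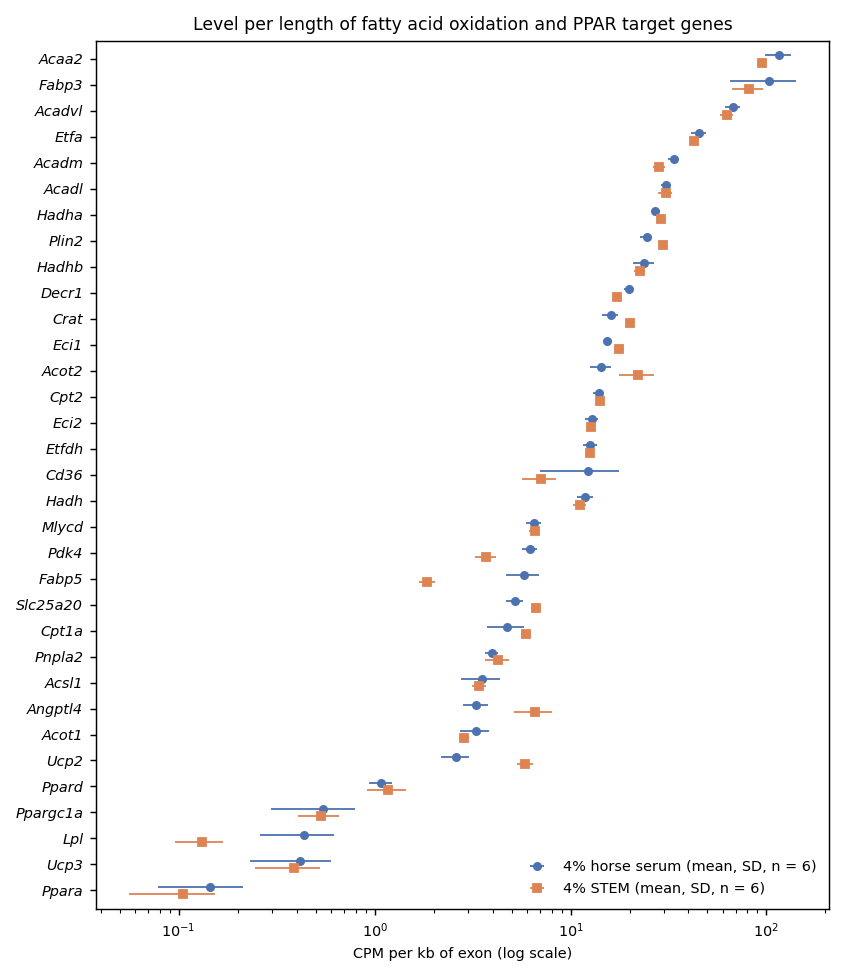
Level of 33 members in CPM per kb of exon on a log scale (mean and SD, n = 6 libraries) with 4% horse serum (circles) and 4% STEM (squares), ordered by the horse serum mean. Acaa2 and Fabp3 stand at the top and Ppara at the bottom. Cpt1b and Etfb are left out because 81.4% and 53.0% of their exon bases also belong to another annotated gene on the same strand. Members that overlap a gene on the opposite strand are kept, among them Acadvl, with 42.9% of its exon bases in Dvl2.

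PPAR and RXR bind DNA at direct repeats of the half-site AGGTCA spaced by 1 base, and the promoter windows of the members were searched for them because several members are known PPAR targets. RefSeq promoter windows on GRCm38.p6 were at hand for 28 of the 35 members (29 windows). Angptl4, Lpl, Fabp5, Crat, Cpt1b, Decr1 and Acaa2 had no window and were not searched. The 250 bases before each start were read on both strands, with up to 2 mismatches over the 12 repeat bases. Of the 29 windows, 4 held a match (13.8%), against 3.24% of all 32851 promoters. With at most 1 mismatch no member window held one, against 0.484% of all promoters. The 4 were those of Plin2, which rose with STEM, Cd36 and Etfa, which fell in the fit without library 6 and not in the fit of all 12 libraries, and Ucp3, which was not called in either. The matches of Plin2, Cd36 and Etfa lie on the strand opposite to the gene. The windows of Plin2 (chr4:86670060-86670309, minus strand) and Cd36 (chr5:17835897-17836146, minus strand) are shown 5′ to 3′ in the direction of the gene, with the match in capitals, because their genes had the larger called changes of the 4.
Plin2: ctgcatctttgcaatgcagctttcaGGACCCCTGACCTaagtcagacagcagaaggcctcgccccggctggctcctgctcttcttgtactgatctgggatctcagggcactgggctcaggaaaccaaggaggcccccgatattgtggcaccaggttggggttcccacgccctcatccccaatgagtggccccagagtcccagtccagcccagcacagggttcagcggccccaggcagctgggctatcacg
Cd36: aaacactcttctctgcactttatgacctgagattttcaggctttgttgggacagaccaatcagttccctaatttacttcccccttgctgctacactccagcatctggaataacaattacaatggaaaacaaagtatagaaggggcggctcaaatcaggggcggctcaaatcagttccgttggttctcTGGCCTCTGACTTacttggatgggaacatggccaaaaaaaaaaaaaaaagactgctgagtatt
In Plin2 the match begins 225 bases and in Cd36 63 bases before the start. The RefSeq start used for Cd36 lies inside the gene as GENCODE annotates it. The other 2 matches, 51 bases before the start of Ucp3 (window chr7:100472741-100472990, plus strand) and 77 bases before that of Etfa (window chr9:55512244-55512493, minus strand), read as follows in the direction of the gene.
Ucp3: AGGTTTCAGGTCA
Etfa: TTACCTTTGCCCT
A match describes letters only, and binding was not measured in these samples. The genes of the subunits of the trifunctional protein, Hadha and Hadhb, start 272 bases apart on chromosome 5 and run in opposite directions, so that their windows share 228 bases. That of Hadhb (chr5:30155003-30155252, plus strand) is shown because the genes of 2 subunits of the same complex share this stretch.
Hadhb: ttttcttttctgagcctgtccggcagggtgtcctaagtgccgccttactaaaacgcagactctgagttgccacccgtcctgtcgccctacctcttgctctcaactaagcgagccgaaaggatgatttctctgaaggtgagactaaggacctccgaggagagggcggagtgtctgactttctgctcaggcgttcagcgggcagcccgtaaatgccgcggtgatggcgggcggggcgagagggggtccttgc

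Among the uptake genes, 2 of 4 fell with STEM and none rose, and without library 6 all 4 fell. Of all genes, 17.4% were called lower, and 24.5% without library 6. Lpl, the gene of the lipase that frees fatty acids from circulating triglyceride (ENSMUSG00000015568, chr8:68880491-68907448 on GRCm38, protein coding like all members), was at 2.36 to 7.13 CPM (median 4.65) in the horse serum libraries and 1.06 to 2.09 CPM (median 1.22) in the STEM libraries. The groups did not overlap, although horse serum libraries 5 and 6, at 2.66 and 2.36 CPM, lay near the highest STEM library. The log2 fold change was -1.73 (SE 0.28, adjusted p = 2.83e-04), on 18 to 31 counts per STEM library. Fabp5, which encodes a fatty acid binding protein of many cell types (ENSMUSG00000027533, chr3:10012548-10016607), was at 16 to 27.1 CPM (median 19.9) with horse serum and 5.94 to 7.6 CPM (median 6.33) with STEM. Every STEM library was below every horse serum library, at a log2 fold change of -1.63 (SE 0.12, adjusted p = 2.16e-07). Cd36, the gene of the fatty acid translocase at the cell surface (ENSMUSG00000002944, chr5:17781690-17888801), was at 47.3 to 55.6 CPM in horse serum libraries 1 to 5, 5.38 CPM in library 6 and 19.95 to 32.7 CPM (median 24.6) with STEM. Library 6 lay below all STEM libraries, and the other 5 lay above them. The fold change was accordingly -0.80 on the log2 scale with an SE of 0.41 over 12 libraries (adjusted p = 0.158), and -1.04 with an SE of 0.11 without library 6 (adjusted p = 7.31e-06). Fabp3, the form that carries fatty acids in muscle (ENSMUSG00000028773, chr4:130308595-130315463), had the same shape, with 93.1 to 103 CPM in libraries 1 to 5, 21.5 CPM in library 6 and 56.3 to 84.5 CPM (median 62.3) with STEM. Its log2 fold change was -0.34 (SE 0.31, adjusted p = 0.417), and -0.54 without library 6 (SE 0.11, adjusted p = 0.00123). Of the 100-base windows of its transcripts 21.7% also occur in the pseudogene Fabp3-ps1, so the level of Fabp3 is uncertain to that extent.

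Of the 7 genes of activation and the carnitine shuttle, 3 rose with STEM and none fell. Of all genes, 18.9% were called higher and 17.4% lower. Slc25a20, the carrier that exchanges acylcarnitine for carnitine across the inner membrane (ENSMUSG00000032602, chr9:108662088-108684641), was at 21.8 to 28.2 CPM (median 25.5) with horse serum and 29.2 to 33.5 CPM (median 33) with STEM, without overlap (log2 fold change 0.35, SE 0.068, adjusted p = 0.00103). Crat, carnitine acetyltransferase, which buffers acetyl-CoA (ENSMUSG00000026853, chr2:30400471-30415813), was at 72.8 to 95.5 CPM (median 88.9) and 103 to 115 CPM (median 107), again without overlap. Its log2 fold change was 0.33 (SE 0.060, adjusted p = 5.76e-04), and its value in library 6, 72.8 CPM, was the lowest of the horse serum group. Cpt1a encodes the liver form of carnitine palmitoyltransferase 1, the regulated entry step of long-chain oxidation (ENSMUSG00000024900, chr19:3322334-3385733). It was at 28.9 to 37.5 CPM in horse serum libraries 1 to 5, 51.1 CPM in library 6 and 41.9 to 48.4 CPM (median 45.8) with STEM. Library 6 exceeded every STEM library, while libraries 1 to 5 lay below them. The log2 fold change of Cpt1a was 0.31 (SE 0.11, adjusted p = 0.0366), and 0.44 without library 6 (SE 0.061, adjusted p = 8.71e-06). Its call in the fit of all 12 libraries was the least stable of the 14, kept in 8 of 19 alternatives. It was lost with total counts as scaling (adjusted p = 0.0638), with no filter on low counts (0.075), and on leaving out any of libraries 1 to 5 or 9 to 12 (0.056 to 0.0793).

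Cpt1b, the muscle form of the same enzyme, was listed at 4 to 21 counts per library, and 81.4% of its exon bases also belong to Gm44502 on the same strand, which leaves its level and its log2 fold change (0.094, SE 0.30) uncertain. Cpt2, which returns the acyl group to coenzyme A on the inner membrane, was at 31 to 36.1 CPM (median 33.3) and 32 to 35.7 CPM (median 34), and its log2 fold change was 0.022 (SE 0.055, adjusted p = 0.782). Mlycd, malonyl-CoA decarboxylase, which removes the inhibitor of carnitine palmitoyltransferase 1, was at 17.2 to 21.2 CPM (median 19.2) and 17.4 to 21 CPM (median 19.6), with a log2 fold change of 0.011 (SE 0.071, adjusted p = 0.915). The groups of both genes overlapped over nearly their whole ranges. Acsl1, the main acyl-CoA synthetase of muscle, was at 38.9 to 42.1 CPM in horse serum libraries 1 to 5, 20.4 CPM in library 6 and 33.4 to 41.5 CPM (median 34.8) with STEM. It was called in the fit without library 6 alone (log2 fold change -0.18, SE 0.058, adjusted p = 0.0151, against -0.051 and 0.808 with it), and STEM library 7, at 41.5 CPM, still lay among the horse serum libraries.

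In the β-oxidation spiral, 2 of 7 genes fell with STEM and none rose, and without library 6 the number that fell was 5. These counts stand beside 17.4% of all genes called lower, and 24.5% without library 6. Acadm, the medium-chain acyl-CoA dehydrogenase (ENSMUSG00000062908, chr3:153922357-153944632), was at 116 to 143 CPM (median 133) with horse serum and 104 to 124 CPM (median 109) with STEM. Its groups overlapped through library 6, which at 116 CPM was below STEM library 7 at 124 CPM (log2 fold change -0.25, SE 0.056, adjusted p = 0.00291). Acaa2, the 3-ketoacyl-CoA thiolase of the last step (ENSMUSG00000036880, chr18:74779197-74806208), was at 177 to 193 CPM in libraries 1 to 5, 123 CPM in library 6 and 135 to 153 CPM (median 144) with STEM. All STEM libraries lay between library 6 and the other horse serum libraries. The log2 fold change of Acaa2 was -0.29 (SE 0.090, adjusted p = 0.020), and -0.38 without library 6 (adjusted p = 3.50e-07). For Acadm and Acaa2 the groups no longer overlapped once library 6 was left out.

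The other genes of the spiral differed by less. Acadvl, the very long-chain dehydrogenase, was at 149 to 192 CPM (median 186) with horse serum and 151 to 183 CPM (median 172) with STEM, with a log2 fold change of -0.10 over all libraries and -0.15 without library 6 (adjusted p = 0.231 and 0.0089). A share of 42.9% of its exon bases overlaps Dvl2 on the opposite strand, and the libraries were stranded but the strand setting of the counting is not given in the sources used here. Hadhb, the thiolase subunit of the trifunctional protein, was at 119 to 172 CPM (median 164) and 140.3 to 164 CPM (median 145). Its log2 fold change was -0.082 (adjusted p = 0.433), and -0.15 without library 6 (adjusted p = 0.0061), with 14.8% of its 100-base windows also found in Gm13910. Hadha, the hydratase and dehydrogenase subunit of the same complex, was at 212 to 247 CPM (median 239.7) and 239 to 267 CPM (median 255), with a log2 fold change of 0.095 (SE 0.049, adjusted p = 0.141). It was called with total counts as scaling and in no other alternative (0.12, adjusted p = 0.037). Whether Hadha and Hadhb, which share the promoter stretch printed earlier, differed in their response was not tested. Hadh, the short-chain hydroxyacyl-CoA dehydrogenase, was at 48.9 to 63.1 CPM (median 61) and 49.9 to 62.1 CPM (median 55.4), with a log2 fold change of -0.087 (adjusted p = 0.342), and was called lower without library 6 alone (-0.14, adjusted p = 0.0387). Acadl, the long-chain dehydrogenase, was at 57.4 to 66.1 CPM (median 61.6) and 53.9 to 66.1 CPM (median 63), and its log2 fold change was -0.0032 (SE 0.057, adjusted p = 0.974).

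The 3 auxiliary enzymes for unsaturated fatty acids went different ways. Eci1, an enoyl-CoA isomerase of mitochondria (ENSMUSG00000024132, chr17:24426641-24439348), was at 30.9 to 35 CPM (median 32.5) with horse serum and 35.7 to 40.8 CPM (median 36.6) with STEM, without overlap (log2 fold change 0.20, SE 0.054, adjusted p = 0.00983). Decr1, the dienoyl-CoA reductase of mitochondria (ENSMUSG00000028223, chr4:15917240-15945507), was lower with STEM, at 61.9 to 71.9 CPM (median 67.8) against 69.7 to 82.2 CPM (median 78.7) with horse serum. Its log2 fold change was -0.20 (SE 0.053, adjusted p = 0.00712), and the groups overlapped through library 6 at 69.7 CPM. Eci2, the peroxisomal and mitochondrial isomerase, was at 61.2 to 74.8 CPM (median 73.5) and 66.5 to 74.4 CPM (median 70.1), with a log2 fold change of -0.018 (SE 0.054, adjusted p = 0.815).
None of the 3 genes of electron transfer was called in the fit of all 12 libraries. The flavoprotein subunit gene Etfa was at 70.8 to 90.7 CPM (median 84.1) and 74.2 to 82.5 CPM (median 78.2), a log2 fold change of -0.089 (adjusted p = 0.235) that without library 6 was -0.13 and passed the test (adjusted p = 0.0137). Etfb, the other subunit, was at 14.3 to 18.1 CPM (median 16) and 16 to 20.6 CPM (median 17.9), with a log2 fold change of 0.17 (SE 0.080, adjusted p = 0.106), and 53.0% of its exon bases also belong to Gm45233 on the same strand. Etfdh, which passes the electrons to ubiquinone, was at 81.7 to 101 CPM (median 98.1) and 89.2 to 97.4 CPM (median 93.7), with a log2 fold change of -0.0099 (SE 0.052, adjusted p = 0.8998).

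Of the genes of storage and of acyl-CoA hydrolysis, Plin2 and Acot2 rose with STEM. Plin2, which coats lipid droplets (ENSMUSG00000028494, chr4:86648386-86670060), was at 80.2 to 86.4 CPM in horse serum libraries 1 to 5, 97.2 CPM in library 6 and 102 to 107 CPM (median 104) with STEM. The STEM libraries lay close together and above all horse serum libraries, at a log2 fold change of 0.28 (SE 0.047, adjusted p = 3.07e-04). Pnpla2, the gene of the lipase that opens triglyceride breakdown in droplets, was at 10.7 to 12.9 CPM (median 12.3) and 10.5 to 15 CPM (median 12.3), and its log2 fold change was 0.096 (SE 0.094, adjusted p = 0.45). Acot2, a thioesterase of the mitochondrial matrix (ENSMUSG00000021226, chr12:83987861-83993873), was at 27.2 to 35.2 CPM (median 31.4) with horse serum and 40.9 to 62.4 CPM (median 44) with STEM, a log2 fold change of 0.63 (SE 0.12, adjusted p = 0.00103). STEM libraries 9 and 10, at 60.1 and 62.4 CPM, stood above the other 4 STEM libraries at 40.9 to 44.9 CPM. Its cytosolic neighbour Acot1 (ENSMUSG00000072949, chr12:84009490-84018371) was at 10.1 to 16.1 CPM (median 12.7) and 9.98 to 12.1 CPM (median 11.4), with a log2 fold change of -0.21 (SE 0.10, adjusted p = 0.13). The pair share 359 of their 100-base windows, 12.4% of those of Acot1 being found in other genes and 17.1% of those of Acot2, so counts could have been split between them.

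The PPAR-responsive genes held the largest rises of the 34 tested members, and a fall. Angptl4, the secreted inhibitor of lipoprotein lipase (ENSMUSG00000002289, chr17:33773750-33781830), was at 9.19 to 13.8 CPM (median 11.7) with horse serum and 18.5 to 30.6 CPM (median 21.3) with STEM. STEM libraries 7 and 8, at 29 and 30.6 CPM, were higher than the other 4 at 18.5 to 22 CPM, and each of the 6 was above every horse serum library. The log2 fold change was 1.01 (SE 0.14, adjusted p = 6.99e-05). The gene of the lipase it inhibits, Lpl, was lower with STEM.
Ucp2, an uncoupling protein family carrier of the inner membrane (ENSMUSG00000033685, chr7:100493337-100502020), was at 14.3 to 22.8 CPM (median 18) with horse serum and 37.7 to 46.2 CPM (median 39.1) with STEM, a 2.24-fold difference (log2 fold change 1.17, SE 0.098, adjusted p = 7.34e-07). The highest horse serum value was that of library 6, and the groups were far from overlapping. Ucp3, the muscle form and the gene next to Ucp2 on chromosome 7 (ENSMUSG00000032942, chr7:100472990-100486432), was low in both groups, at 0.205 to 1.7 CPM (median 1.56) and 0.648 to 1.75 CPM (median 1.16). Library 6 held 4 counts of it, and the log2 fold change was -0.047 (SE 0.36, adjusted p = 0.933).
Pdk4, the kinase that shuts the pyruvate dehydrogenase complex when fat is burned (ENSMUSG00000019577, chr6:5483351-5496309), went the other way. It was at 18 to 23.4 CPM (median 22.4) with horse serum and 11.1 to 15 CPM (median 13.1) with STEM, without overlap. Its log2 fold change was -0.73 (SE 0.090, adjusted p = 2.49e-05) over 12 libraries and -0.78 without library 6. Angptl4, Ucp2 and Pdk4 kept their calls under all 19 alternatives.

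**Figure D3:**
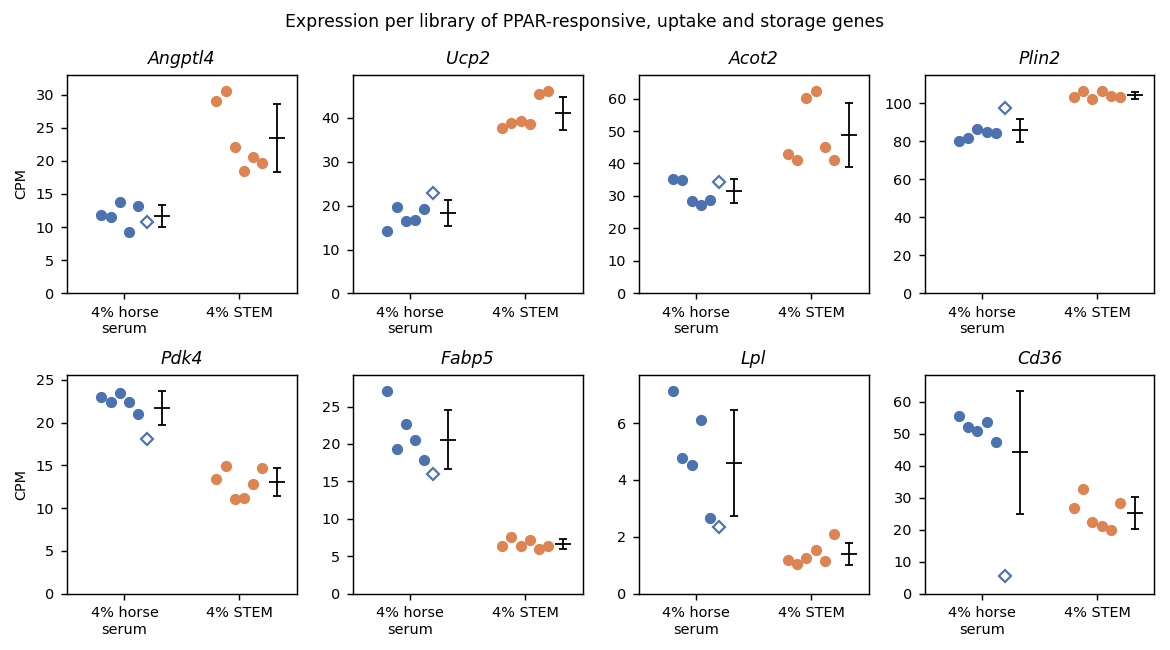
CPM in each library (points; open diamond, horse serum library 6) with the mean and SD of 6 libraries per group (bars) for 8 members. Angptl4, Ucp2, Acot2 and Plin2 are higher and Pdk4, Fabp5 and Lpl lower in every STEM library than in every horse serum library, while for Cd36 library 6 at 5.38 CPM lies below all STEM libraries.

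The regulators themselves showed no called difference. Ppard was at 6.99 to 9.96 CPM (median 7.999) with horse serum and 6.97 to 12.5 CPM (median 8.34) with STEM, a log2 fold change of 0.12 (SE 0.14, adjusted p = 0.528). The coactivator gene Ppargc1a was at 1.02 to 5.85 CPM (median 3.61) and 2.26 to 4.85 CPM (median 3.45), and its log2 fold change of -0.023 had an SE of 0.30 (adjusted p = 0.963). Library 6 was the lowest of all 12 for this gene. Ppara, at 0.206 to 0.966 CPM (median 0.513) and 0.122 to 0.658 CPM (median 0.45), had 3 to 16 counts per library and was not tested.

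Of the 34 tested members, 22 had their lowest horse serum value in library 6, 4 had their highest there (Cpt1a, Slc25a20, Plin2 and Ucp2) and 8 had neither. Of all genes, 33.1% had their lowest horse serum value in library 6 and 35.8% their highest. The median of its log2 difference from the mean of the others was -0.23 over the members and 0.016 over all genes, and the lowest values were those of Cd36 (-3.27), Ucp3 (-2.89), Fabp3 (-2.19) and Ppargc1a (-2.0). The muscle markers were also low in this library, as given earlier, with a median log2 difference of -1.32 over the 22 of them. When it was left out, the groups did not overlap for 16 of the 34 members in place of 10, or 47.1% against 33.3% of all genes. The 7 gained calls were Cd36, Fabp3, Acsl1, Acadvl, Hadhb, Hadh and Etfa.

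**Figure D4:**
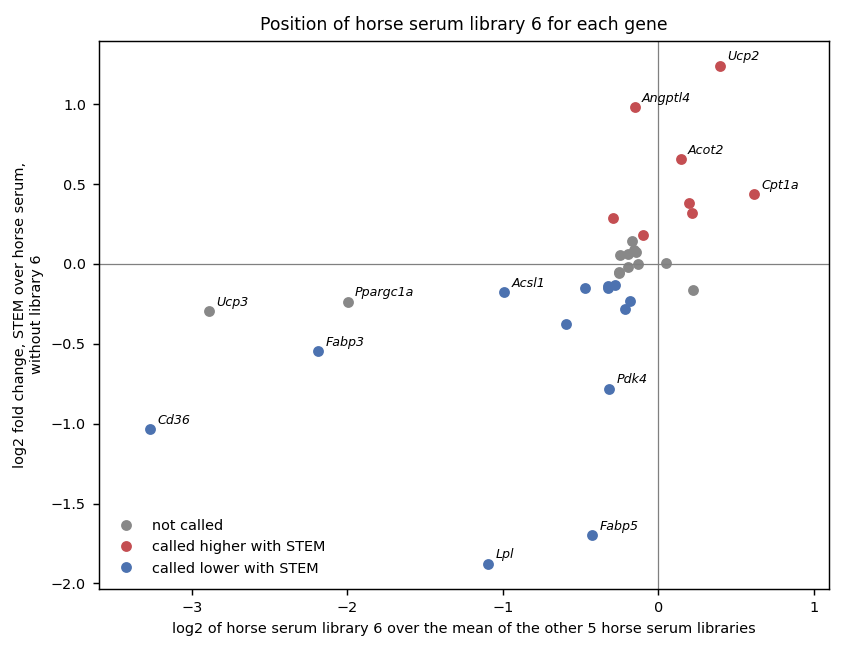
For each tested member, the log2 ratio of horse serum library 6 to the mean of the other 5 horse serum libraries (horizontal axis) against the log2 fold change of STEM over horse serum in the fit without library 6 (vertical axis), coloured by the call in that fit, with horse serum libraries 1 to 5 entering both axes. Cd36 lies at -3.27 on the horizontal and -1.04 on the vertical axis, and Ucp2, Acot2 and Cpt1a lie at the upper right.

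Beyond the members, 108 other genes of fatty acid metabolism were listed by role, of which 94 were tested and 28 were called (29.8% against the 36.4% of all genes), 15 higher and 13 lower with STEM. Without library 6 there were 50 (53.2% against 50.8% of all genes), 22 higher and 28 lower. The shares to set beside each list that follows are 18.9% of all genes called higher and 17.4% lower. Lists and genes that follow are given over all 12 libraries unless stated. Without library 6, 5 lipid droplet and lipolysis genes rose and 5 fell, and 5 PPAR receptors and partners rose and 3 fell. In that fit 3 peroxisomal genes rose and 5 fell, and 2 other mitochondrial oxidation genes rose and 5 fell. Uptake and activation genes split into 3 and 3, and carnitine and ketone body genes into 2 and 1. The shares of all genes in that fit were 26.3% higher and 24.5% lower. Of 14 tested lipid droplet and lipolysis genes, 4 rose and 4 fell. The monoglyceride lipase gene Mgll rose from 29.7 ± 2.59 CPM to 52.2 ± 2.48 CPM (SD, n = 6, log2 fold change 0.81, adjusted p = 2.91e-07). G0s2, which encodes an inhibitor of the lipase made by Pnpla2, rose from 71.7 ± 5.19 CPM to 105 ± 11.1 CPM (adjusted p = 2.68e-05). Fitm2, needed for droplet formation, rose from 46.9 ± 3.03 CPM to 57.1 ± 2.23 CPM (adjusted p = 5.55e-04).
Of 14 tested receptors and partners of the PPARs, 3 rose and 1 fell. The gene that fell was Pparg, the receptor of adipocytes, which stood at 12.4 ± 1.81 CPM in the horse serum group and 6.87 ± 0.502 CPM in the STEM group, without overlap (log2 fold change -0.84, SE 0.10, adjusted p = 2.13e-05). Esrra, the gene of the estrogen-related receptor that drives mitochondrial genes, rose from 43.5 ± 2.94 CPM to 52.4 ± 3.43 CPM (adjusted p = 0.00223), and Pprc1, which encodes a coactivator related to PGC-1α, from 7.47 ± 2.88 CPM to 13 ± 3.15 CPM (adjusted p = 0.0157). The partner genes Rxra and Rxrb had log2 fold changes of 0.0078 and -0.13 (adjusted p = 0.934 and 0.11), Ppargc1b one of 0.20 (adjusted p = 0.285), and Rxrg did not exceed 1 count in any library.
Of 17 tested peroxisomal genes, 2 rose and 2 fell. The racemase gene Amacr rose from 71.1 ± 1.94 CPM to 91.1 ± 4.91 CPM (adjusted p = 2.04e-05). Decr2, the peroxisomal reductase, fell from 8.3 ± 0.486 CPM to 5.62 ± 1.2 CPM (adjusted p = 0.00293), the direction of its mitochondrial relative Decr1.
Of 16 other mitochondrial oxidation genes, 1 rose and 3 fell. The propionyl-CoA carboxylase gene Pccb had a log2 fold change of 0.24 (adjusted p = 0.00161), and Acadsb and Acad11 had -0.18 and -0.25 (adjusted p = 0.0369 and 0.0475). Of 6 carnitine and ketone body genes, the carnitine transporter gene Slc22a5 rose (log2 fold change 0.32, adjusted p = 0.00162) and Oxct1, which starts the use of ketone bodies, fell (-0.29, adjusted p = 2.53e-04). Of 11 uptake and activation genes, Slc27a4 and Lmf1, whose product matures lipoprotein lipase, rose (0.26 and 0.17, adjusted p = 5.53e-04 and 0.0403), and the synthetase gene Acsl3 fell (-0.26, adjusted p = 0.00125). Of 16 genes of the switch between glucose and fat, 2 rose and 1 fell. Without library 6 these numbers were 2 and 6 (26.3% and 24.5% of all genes). Pdp1, the phosphatase that reopens the pyruvate dehydrogenase complex and so opposes the kinase made by Pdk4, stood at 120.1 ± 32.3 CPM in the horse serum group and 72.9 ± 8.01 CPM in the STEM group (log2 fold change -0.72, SE 0.19, adjusted p = 0.0109). The genes of the kinase and of the phosphatase were thus both lower with STEM. The kinase gene Pdk3 and Prkab1, an AMPK subunit, rose by 0.19 and 0.23 on the log2 scale (adjusted p = 0.0168 and 0.0338).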

How the data were processed

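The authors deposited raw read counts per Ensembl gene for 12 C2C12 libraries, made from ribosomal RNA-depleted stranded total RNA, without normalization. STAR 2.7.3a, featureCounts 1.6.3, DESeq2 1.26.0 and GRCm38 are named in the submitters' processing notes, and the strand setting of the counting is not given in the sources used here. Samples were grouped by their labels, and none was left out of the main results. Symbols, coordinates and exon lengths came from GENCODE M21 (GRCm38). Differences were tested with edgeR 4.0.16 (TMM, filterByExpr, robust quasi-likelihood) in R 4.3.3 and adjusted by Benjamini-Hochberg over 14175 genes. Values per library are CPM of the TMM-normalized total. Pairs of libraries within a group differed by a chi-square per degree of freedom of 3.29 to 68.5, and of at most 18.8 without horse serum library 6. The alternatives were other scalings (DESeq2 size factors, total counts, upper quartile), no filter, at least 10 counts in every library, DESeq2 1.42.0, limma-voom (limma 3.58.1) and leaving out each library in turn. The test was checked on simulated counts with the same spread for every gene and no outlying library, so the check does not cover a library such as library 6.

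The members and all gene lists were chosen with earlier results of these data known. Named were all 35 members, at most 3 called genes of lowest p per list of other pathway genes, the genes Pparg, Rxra, Rxrb, Rxrg, Ppargc1b and Esrra, and the 3 highest genes per marker list. Marker genes named at or near 0 were chosen after their values were seen. Some genes that meet this rule are left out of the text.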

Additional observations from a re-analysis of the deposited data

Results flagged for a closer look

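In 68 groups of 6 libraries (34 tested members in each group), the highest or lowest library was compared with its neighbour, and 9 groups held a library farther off than Dixon's 95% critical value. Chance flags about 1 in 20 groups. All 9 were the lowest value of the horse serum group and all came from library 6. These were Cd36 at 5.38 CPM, Fabp3 at 21.5 CPM and Acsl1 at 20.4 CPM among the genes of uptake and activation, Acadvl at 149 CPM, Hadha at 212 CPM, Hadhb at 119 CPM, Hadh at 48.9 CPM and Acaa2 at 123 CPM in the β-oxidation spiral, and Ucp3 at 0.205 CPM. The muscle markers and the share of mitochondrially encoded RNA were also low in this library, and their part in these values was not tested.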

How the results depend on the processing

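Over the 19 alternatives, the number of members called was between 13 and 21, and no called member changed direction. Of the 14 calls, 13 were kept under every alternative, the exception being Cpt1a. Leaving out each library in turn gave 6 to 13 members called lower and 10 to 16 called without overlap, and 22 to 50 other pathway genes called, of which 10 to 28 were lower. The highest of each range came without horse serum library 6. Acot1 was called lower without library 1 alone (log2 fold change -0.27, adjusted p = 0.0426). Members that were not called changed sign 35 times over the alternatives, so no direction is read from them. No paired analysis was possible because the groups share no replicate number. Depth limits Ppara, Cpt1b and Ucp3, with at most 16, 21 and 41 counts per library.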

Other observations

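The marker lists held changes of their own. Of 9 genes of undifferentiated myoblasts, 3 were called higher and 2 lower with STEM in edgeR (18.9% and 17.4% of all genes). The highest of the list, Cdh15, the gene of M-cadherin, went from 349 ± 57.7 CPM to 481 ± 23.6 CPM (SD, n = 6, log2 fold change 0.46, SE 0.086, adjusted p = 7.81e-04), while Myod1 had a log2 fold change of 0.026 (adjusted p = 0.797). Of 22 myotube markers, 2 were higher and 3 lower (18.9% and 17.4% of all genes), and without horse serum library 6 these numbers were 2 and 15 (26.3% and 24.5% of all genes). Of 12 cell cycle genes, 10 were lower with STEM and none higher, and 9 were lower without library 6. The groups did not overlap for 7 of the 12, against 17.2% of all genes. Dio2, a deiodinase gene of brown fat and muscle, was at 291 ± 38.9 CPM and 318 ± 16.5 CPM, with a log2 fold change of 0.13 (adjusted p = 0.209).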
